A study of Mus musculus with 2 samples.

Results

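The chaperones and the genes of the unfolded protein response were followed here, 46 genes of the 23282 rows counted in the RNA-seq of control and RV-Cre-transduced Th17 cells. They were chosen by symbol, and all 46 were found as rows of both count tables. The members comprised 23 genes of the endoplasmic reticulum (ER) and the unfolded protein response (UPR) and 23 genes of the cytosolic heat shock proteins, the mitochondrial chaperones and the cytosolic chaperonin CCT.

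Naïve CD4 T cells had been isolated from the spleens of *Fak* fl/fl mice, female animals by the study's methods, activated with 10 μg/ml plate-bound anti-CD3ε and 5 μg/ml soluble anti-CD28, and transduced with a control retrovirus (the empty vector) or with RV-Cre, which carries Cre recombinase and so deletes the floxed part of *Fak*. Both cultures received IL-6 (50 ng/ml), TGFβ1 (1 ng/ml), TNFα (1 ng/ml), IL-1β (2 ng/ml) and antibodies to IFNγ and IL-4 (5 μg/ml each) for 3 days, and the study analysed GFP+ cells, those that carried a vector. The control library bears the genotype label WT although its title names *Fak* fl/fl cells, and it was taken as the floxed cells with the control retrovirus. There was 1 library per condition, no library combined Cre with intact *Fak*, and the number of mice behind each library was not stated in the sources used here. No difference below therefore has a replicate check, no p-value is given, and an effect of Cre itself or of the culture cannot be told apart from loss of *Fak*.

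Secreted and membrane proteins fold in the ER with the help of Hsp70 and Hsp90 family chaperones, lectin chaperones and protein disulfide isomerases. When unfolded proteins accumulate, the sensors IRE1α, ATF6 and PERK start the UPR, in which the transcription factors XBP1 and ATF6 raise the genes of chaperones and of ER-associated degradation (ERAD), the route by which misfolded proteins leave the ER for the proteasome. In the cytosol, heat shock proteins are raised by the factor HSF1, and CCT folds actin and tubulin. Activated T cells enlarge their protein synthesis and secretion, and Th17 cells secrete cytokines such as IL-17A.

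The best known DNA element of the UPR is the ER stress response element (ERSE), a CCAAT box followed after any 9 bases by the block CCACG. It was searched on both strands in the 250 bases upstream of each gene's start in RefSeq (assembly GRCm38.p6), a window given for 37 of the 46 members. The element lay in 8 of the 20 ER and UPR members with a window (40%) and in 0 of the 17 other members, against 35 of all 27025 genes with a window (0.13%). The members were picked as genes of the UPR and the element is one known from the UPR, so this share is not independent of the choice. The sites are shown as a description of the 8 members that carry it. Each is written 5′ to 3′ in the direction of the element, with its fixed ends in capitals.
*Hspa5*: CCAATcggaggcctCCACG
*Hsp90b1*, distal site: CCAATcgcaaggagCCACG
*Hsp90b1*, proximal site: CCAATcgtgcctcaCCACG
*Pdia6*: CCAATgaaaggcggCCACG
*Syvn1*: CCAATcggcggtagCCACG
*Calr*: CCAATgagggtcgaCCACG
*Canx*: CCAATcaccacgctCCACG
*Creld2*: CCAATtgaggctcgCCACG
*Dnajc3*: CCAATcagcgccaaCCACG

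The *Hsp90b1* window held the element in both orientations. The windows of *Hspa5* and *Hsp90b1* are given whole, since these neighbours in function carried the same element and differed in their read ratio. Capitals mark the elements, and the sequences run 5′ to 3′ along the strand of the gene.
*Hspa5*, plus strand of chr2:34771840-34772089: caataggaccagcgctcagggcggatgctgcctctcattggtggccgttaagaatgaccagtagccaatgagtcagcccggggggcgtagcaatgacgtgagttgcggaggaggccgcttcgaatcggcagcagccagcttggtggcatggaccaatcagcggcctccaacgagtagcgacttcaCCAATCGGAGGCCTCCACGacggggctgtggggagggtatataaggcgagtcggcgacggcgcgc
*Hsp90b1*, minus strand of chr10:86705445-86705694: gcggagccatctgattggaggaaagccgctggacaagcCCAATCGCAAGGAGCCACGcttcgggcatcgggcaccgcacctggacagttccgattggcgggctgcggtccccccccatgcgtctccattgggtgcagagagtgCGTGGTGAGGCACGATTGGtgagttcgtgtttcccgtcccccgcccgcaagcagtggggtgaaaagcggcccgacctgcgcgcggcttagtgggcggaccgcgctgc
The GENCODE M21 records of both genes begin inside these windows, upstream of the RefSeq start. A second form of the element, ERSE-II, in which the CCAAT block is inverted and 1 base separates it from CCACG, was found in 10 of the 27025 windows (0.037%), of which 1 was that of the member *Herpud1*. The XBP1 site UPRE, whose letters include the complement of the CCACG block, was in 163 windows (0.603%) and in 0 of the members' windows. The heat shock element HSE, searched as 3 alternating GAA and TTC blocks with 2 bases between them, was in 139 windows (0.514%), and among the members it lay between *Hspd1* and *Hspe1*, which start from 1 shared stretch of chromosome 1. A match of letters is a description of the window and not of binding.

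*Ptk2*, the symbol under which *Fak* is listed, went from 110 reads with the control vector to 31 with RV-Cre (ratio 0.318, 95% interval 0.206 to 0.478). The libraries held 13799264 and 12305010 counted reads. Ratios here are RV-Cre to control after TMM scaling (edgeR), and log2 ratios are of scaled counts with 1 added. Intervals are exact Clopper-Pearson 95% intervals that cover counting error only, and they compare these libraries rather than the conditions. A gene was said to have risen or fallen when its scaled reads differed 2-fold or more and 1 of the libraries reached a log2 value of 4. All 6 T cell markers were read in both libraries. *Cd3d* (3662 and 7475 reads) and *Cd3e* (1453 and 2884) rose, *Cd5* (3800 and 1696) was at a ratio of 0.504, and *Cd3g*, *Cd4* and *Lck* lay between 1.02 and 1.19. The Th17 cytokine genes *Il17a* (424 and 103) and *Il17f* (421 and 79) were lower in RV-Cre. In these bulk samples, fewer cells of a type and less RNA per cell cannot be told apart. Ribosomal RNA (*Rn45s*) made up 8.50% of the control reads and 14.6% of the RV-Cre reads, and with library totals that left it out 5 members fell in place of 6 and the median log2 ratio of the members was -0.31 in place of -0.40.

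Of the 46 members, 44 passed the expression minimum, 6 of these fell in RV-Cre cells and 0 rose. The 6 were *Manf*, *Hsp90b1*, *Syvn1*, *Dnajb9*, *Pdia6* and *Sdf2l1*, all of the ER. They made up 6 of 44 members, against 12.3% of all genes past the minimum that fell and 14.2% that rose. Among the 40 members with a mean log2 value of at least 8, 5 fell and 0 rose, while 7.6% of all genes at that level fell and 3.74% rose. Taken over all 44 members, the share that fell was near the 12.3% of all genes past the minimum. In 41 of the 44 members the log2 ratio was below 0, against 50.4% of all genes past the minimum and 55% of those at a mean log2 value of 8 or more. With counts scaled to *Gapdh* instead, which moved the median of all genes to 0.43, 21 of the 45 members with reads were below 0 and 3 fell. The median log2 ratio of the members was -0.40, with a median of -0.01 over all genes and of -0.08 over the genes at the higher level. Counting intervals lay wholly below a ratio of 1 in 35 members, held 1 in 7 and lay above it in 2, *Dnajb1* and *Cct5*. Over all genes past the minimum the interval lay below 1 in 38.1% and above it in 36.7%, and over the genes at the higher level in 45.6% and 35.6%. The reads of all members summed to a ratio of 0.764.

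**Figure D1:**
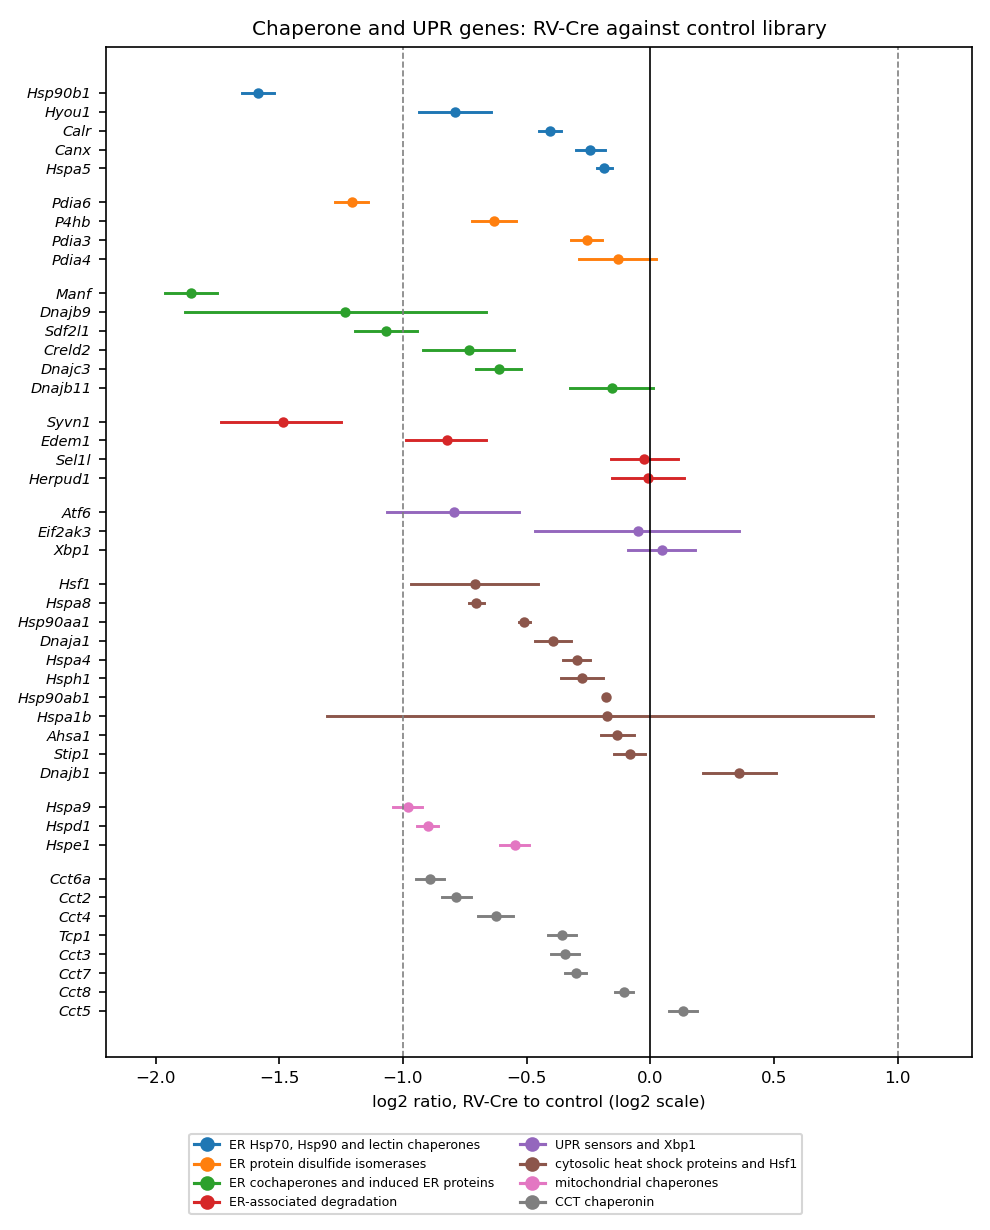
Log2 ratio (RV-Cre to control) of the 44 members past the expression minimum, grouped and coloured by role, with bars for the 95% counting interval and dashed lines at 2-fold. The 6 points left of the lower line belong to ER genes, and 3 points lie right of 0.

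The 22 ER and UPR members past the minimum held all 6 genes that fell, with a median log2 ratio of -0.62, a range from -1.85 to 0.05 and a summed ratio of 0.685. These 6 of 22 stood beside 12.3% of all genes past the minimum that fell. At a mean log2 value of at least 8, 5 of 19 fell, beside 7.6% of all genes at that level. The members were chosen with earlier results of these data known, and the split was not tested. The 22 cytosolic, mitochondrial and CCT members held 0 genes past 2-fold in either direction, with a median of -0.35, a range from -0.98 to 0.36 and a summed ratio of 0.784. The threshold cut through neighbouring values, since *Sdf2l1* lay just inside it at -1.07 and the mitochondrial *Hspa9* just outside it at -0.98.

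**Figure D2:**
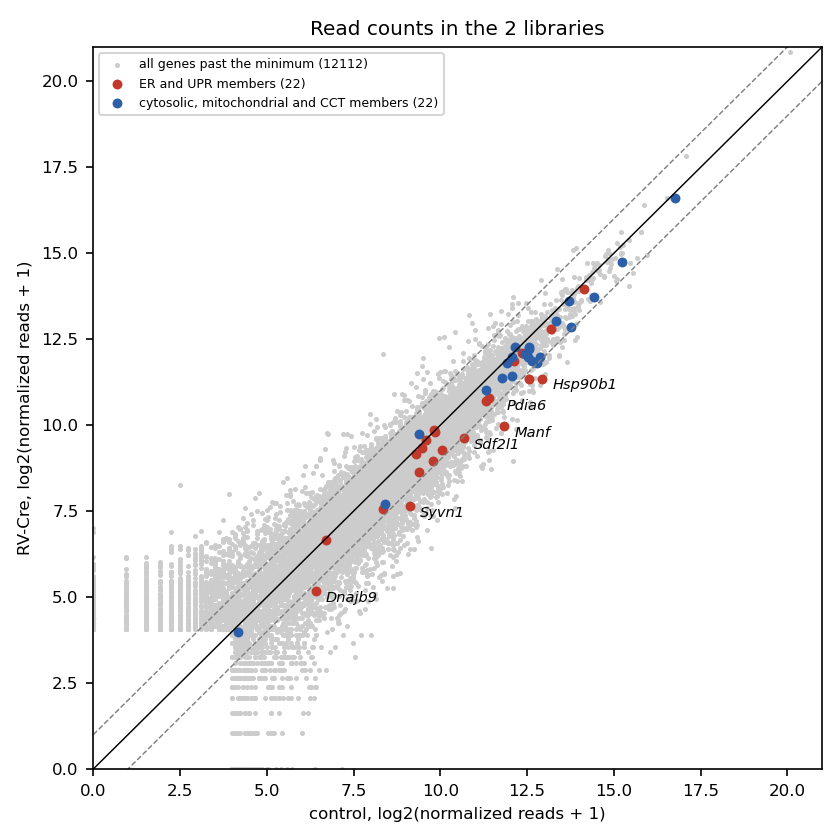
Scaled read counts of the control library (x axis) and the RV-Cre library (y axis), as log2(normalized reads + 1), for all 12112 genes past the minimum (grey), the 22 ER and UPR members (red) and the 22 other members (blue). Dashed lines mark 2-fold, and the 6 named ER genes lie at or beyond the lower line.

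The Hsp70 and Hsp90 chaperones of the ER lumen differed from each other. *Hspa5*, which encodes BiP, the Hsp70 of the ER and the usual marker of the UPR, had 19304 control and 15037 RV-Cre reads, a ratio of 0.879 (0.860 to 0.898). *Hsp90b1*, which encodes GRP94, the Hsp90 of the ER, fell from 8324 to 2457 reads, a ratio of 0.333 (0.318 to 0.349). BiP and GRP94 act one after the other on many clients, and their transcripts moved by unlike amounts in the same pair of libraries. Counted per 100 *Hspa5* reads of the same library, which removes the scaling between libraries, *Hsp90b1* had 43.1 reads in control and 16.3 in RV-Cre cells, a ratio of ratios of 0.379 (0.360 to 0.398). Against its cytosolic relative *Hsp90ab1* the fall was alike, from 6.98 to 2.63 per 100 reads. *Hsp90b1* lies at chr10:86690209-86705509 on the minus strand and shares exon sequence with 3 other annotated genes, and 13.8% of the 50-base stretches of its transcript (7% in the last 500 bases) occur elsewhere. Where along a transcript the reads lie could not be established here, so shared sequence is given for the whole transcript and for its last 500 bases. Whether strand was used in counting is not given, which leaves part of its reads uncertain.

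*Hyou1*, an Hsp70-like exchange factor for BiP, had 1135 and 582 reads, a ratio of 0.579 (0.523 to 0.640). The lectin chaperones calreticulin and calnexin, which hold glycoproteins during folding, were closer to even, *Calr* with 9932 and 6649 reads (ratio 0.756) and *Canx* with 5541 and 4147 (ratio 0.845). These 3 did not pass 2-fold. The *Canx* to *Hspa5* quotient was about the same in both libraries (ratio of ratios 0.961, 0.918 to 1.01).

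Protein disulfide isomerases form and exchange the disulfide bonds of secreted proteins. *Pdia6*, at chr12:17266545-17284770, fell from 6433 to 2467 reads, a ratio of 0.433 (0.413 to 0.453). It overlaps an exon of *Atp6v1c2* on the opposite strand, which leaves part of its count uncertain, although only 0.047% of its 50-base stretches occur elsewhere. *P4hb*, which encodes PDI itself, had 2904 and 1661 reads (ratio 0.645), and *Pdia3*, the partner of the lectin chaperones, 4710 and 3490 (ratio 0.836). *Pdia4* had 747 and 604 reads, and its interval (0.818 to 1.02) held 1. Relative to *Hspa5*, *Pdia6* was at 33.3 reads per 100 in control and 16.4 in RV-Cre cells, whereas *Pdia4* was at 3.87 and 4.02. The family thus held a member that fell and a member whose interval reached 1.

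The cochaperones and small ER proteins that the UPR raises had a median log2 ratio of -0.90, level with the mitochondrial chaperones. Of these 6 members 3 fell, beside 12.3% of all genes past the minimum. *Manf*, a small secreted protein of the stressed ER, fell from 3865 to 946 reads, a ratio of 0.276 (0.257 to 0.297) and the lowest of all 44 members. *Sdf2l1*, a partner of the ER DnaJ proteins, fell from 1745 to 737 reads (0.477, 0.437 to 0.520), and *Dnajb9*, a BiP cochaperone, from 89 to 33 (0.418, 0.272 to 0.630). The few reads of *Dnajb9* leave a wide interval, which reached past 2-fold on its upper side. *Dnajb9* also overlaps *Mir5627* on the opposite strand. A pseudogene shares 5.8% of its 50-base stretches (0% in the last 500 bases). *Creld2*, another protein of the stressed ER, had 710 and 378 reads (ratio 0.601), and *Dnajc3*, a BiP cochaperone, 2718 and 1574 (ratio 0.654). *Dnajb11*, likewise a BiP cochaperone, had 673 and 535 reads with an interval of 0.799 to 1.01. Intervals wholly beyond 2-fold were found for 4 members, *Manf*, *Hsp90b1*, *Pdia6* and *Syvn1*. *Manf* (chr9:106838312-106891979, minus strand) overlaps exons of 3 other genes in the annotation, so its count is uncertain to that extent. In the 1 *Manf* transcript examined, however, 0% of the 50-base stretches (0% in the last 500 bases) occur elsewhere. *Sdf2l1* (chr16:17130138-17132383) overlaps no other exon.

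Among the genes of ERAD, the ligase fell and its adaptor had a ratio near 1. *Syvn1*, which encodes the ubiquitin ligase HRD1 and lies at chr19:6046576-6053712, fell from 593 to 187 reads, a ratio of 0.356 (0.300 to 0.420). *Sel1l*, which encodes the adaptor that holds HRD1 in the membrane, had 971 and 846 reads, a ratio of 0.983 (0.896 to 1.08). *Herpud1*, a further part of the HRD1 complex, had 813 and 716 reads, a ratio of 0.994 (0.898 to 1.10). *Edem1*, which passes misfolded glycoproteins to ERAD, lay between, with 940 and 470 reads (ratio 0.564). Per 100 *Hspa5* reads, *Syvn1* went from 3.07 to 1.24, *Sel1l* from 5.03 to 5.63 and *Herpud1* from 4.21 to 4.76. *Syvn1* overlaps *Mrpl49* on the opposite strand, which leaves part of its count uncertain.

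Of the sensors and *Xbp1*, *Atf6* had the lowest ratio. *Xbp1*, whose mRNA is spliced by IRE1α, had 950 and 869 reads, a ratio of 1.03 (0.940 to 1.13), and the counts do not separate its spliced from its unspliced form. *Atf6* had 347 and 177 reads (0.576, 0.478 to 0.692), and *Eif2ak3*, which encodes PERK, 110 and 94 (0.964, 0.724 to 1.28). *Ern1*, which encodes IRE1α, is listed at 0 in both libraries. A count of 0 allows up to 3 reads, or 0.217 CPM (counts scaled to the library total) in control and 0.244 CPM in RV-Cre cells. A listed 0 need not mean an absent transcript, as the ubiquitin gene *Ubb* is at 0 in both libraries as well. However, 61% of the 50-base stretches of *Ubb* occur elsewhere and 0% of those of *Ern1*, so *Ubb* is unlike *Ern1* in this respect. No sensor passed 2-fold.

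**Figure D3:**
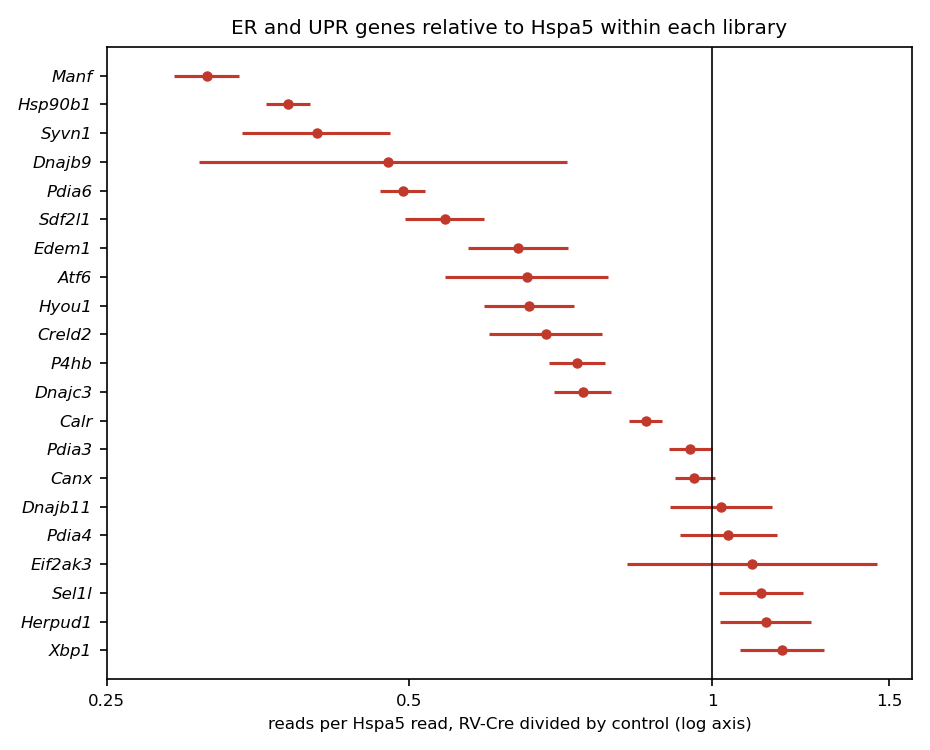
Reads of each ER and UPR member per *Hspa5* read in the RV-Cre library divided by the same quotient in the control library, on a log axis with bars for the 95% counting interval. *Manf*, *Hsp90b1* and *Syvn1* lie lowest, and *Xbp1*, *Herpud1* and *Sel1l* lie above 1 with intervals that exclude it.

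Within the reads of the 23 ER and UPR members, the share of *Hspa5* was 26.2% (25.9% to 26.6%, exact binomial) in control and 33.7% (33.2% to 34.1%) in RV-Cre cells. That of *Hsp90b1* was 11.3% and 5.50%, and that of *Manf* 5.25% and 2.12%. The composition of the ER transcripts therefore differed beyond counting error between the libraries, whatever the scaling. The 8 members with an ERSE had log2 ratios from -1.59 to -0.19 with a median of -0.67, and 3 of them fell. The 11 members past the minimum with a window and no ERSE ranged from -1.23 to 0.05 with a median of -0.16, and 2 of them, *Dnajb9* and *Sdf2l1*, fell. Of all genes past the minimum, 12.3% fell. The ranges overlap, and *Hspa5*, *Canx* and *Calr* carry the element with ratios near those of members that lack it. *Manf* (-1.855), *Atf6* (-0.794) and *Hyou1* (-0.788) had no window and enter neither group. *Herpud1*, which carries ERSE-II, is counted with the members that lack an ERSE.

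None of the cytosolic heat shock members passed 2-fold, and 10 of the 11 past the minimum lay below 0 (median -0.28, or 0.14 with scaling to *Gapdh*). *Hspa8*, the constitutive Hsp70 (HSC70), had 23339 and 12703 reads, a ratio of 0.614 (0.601 to 0.628), and it is uncertain because 74.8% of its 50-base stretches (91.2% in the last 500 bases) also occur elsewhere, mostly in processed pseudogenes. The stress-induced Hsp70 genes *Hspa1a* (8 and 7 reads) and *Hspa1b* (18 and 14) had few reads in both libraries. They share most of their sequence, and summed they had 26 and 21 reads, a ratio of 0.911 (0.488 to 1.69). The cytosolic Hsp90 genes differed in size of change, *Hsp90aa1*, the inducible form, with 41363 and 25739 reads (ratio 0.702) and *Hsp90ab1*, the constitutive form, with 119223 and 93387 (ratio 0.884). Per 100 *Hsp90ab1* reads, *Hsp90aa1* had 34.7 and 27.6, a ratio of ratios of 0.794 (0.780 to 0.809), with 65.6% of the 50-base stretches of the whole *Hsp90aa1* transcript and 0% of those in its last 500 bases shared with pseudogenes.

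The partners of Hsp70 and Hsp90 included the member with the highest ratio. *Dnajb1*, the DnaJ protein that directs Hsp70 to damaged proteins, had 715 and 813 reads, a ratio of 1.28 (1.16 to 1.42). Set against *Hspa8* it went from 3.06 to 6.40 reads per 100, a ratio of ratios of 2.09 (1.88 to 2.32), with the *Hspa8* counts uncertain as said. The other DnaJ member of the cytosol, *Dnaja1*, had 3732 and 2517 reads (ratio 0.761). Its count is uncertain, as 30.6% of its 50-base stretches (0% in the last 500 bases) occur elsewhere. The exchange factors *Hspa4* (6405 and 4618, ratio 0.814) and *Hsph1* (2699 and 1973, ratio 0.825) were alike, while the Hsp90 cochaperones *Stip1* (4515 and 3779, ratio 0.945) and *Ahsa1* (4159 and 3361, ratio 0.912) were closest to even. *Ahsa1* shares 14.6% of its 50-base stretches (35.6% in the last 500 bases), which leaves its count uncertain. *Hsf1*, the gene of the heat shock factor, had 362 and 196 reads, a ratio of 0.611 (0.511 to 0.729).

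The 3 mitochondrial chaperones were low together, with a median log2 ratio of -0.90, and none passed 2-fold. *Hspa9*, the mitochondrial Hsp70 (mortalin), had 7476 and 3356 reads, a ratio of 0.507 (0.486 to 0.528). *Hspd1*, which encodes HSP60, had 14776 and 7014 (0.536, 0.521 to 0.551), and its lid *Hspe1*, which encodes HSP10, 6248 and 3783 (0.683, 0.656 to 0.711). *Hspd1* and *Hspe1* start from 1 shared region, and *Hspe1* had 42.3 reads per 100 *Hspd1* reads in control and 53.9 in RV-Cre cells. Over the whole transcript both share 44.8% of their 50-base stretches with others, and over the last 500 bases *Hspd1* shares 7% and *Hspe1* 52.4%, so that their quotient is uncertain. The mitochondrial group held 7.69% of all member reads in control and 5.64% in RV-Cre cells.

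The 8 genes of CCT encode the subunits of 1 ring and are present once each in it. Their log2 ratios ran from -0.89 to 0.13 around a median of -0.35 (0.07 with scaling to *Gapdh*), and 0 of 8 passed 2-fold. *Cct6a* (8005 and 3827 reads, 0.540), *Cct2* (6809 and 3502, 0.580) and *Cct4* (4539 and 2607, 0.648) were lowest. *Tcp1* (5881 and 4069, 0.781), *Cct3* (6450 and 4499, 0.787) and *Cct7* (10986 and 7900, 0.811) lay in the middle, *Cct8* (14340 and 11799) was at 0.929, and *Cct5* (4849 and 4710) was above even at 1.10 (1.05 to 1.14). Subunits that assemble in equal number thus had transcripts that moved by unequal amounts, as *Cct6a* went from 165 to 81.3 reads per 100 *Cct5* reads. Both share 0% of their 50-base stretches with other genes, but *Cct6a* overlaps exons of 2 others. In the last 500 bases *Tcp1* shares 49.8% and *Cct8* 28.6%, so their counts are uncertain. Within the CCT reads the share of *Cct6a* was 12.9% in control and 8.92% in RV-Cre cells, and that of *Cct5* 7.84% and 11.0%. CCT as a whole held 16.7% and 17.1% of the member reads.

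Other genes of the same pathways were counted for comparison from lists drawn up with earlier results of these data known. Of 110 listed genes past the minimum, 14 fell and 2 rose, with a median log2 ratio of -0.19 and 73 below 0. The background over all genes was 12.3% fallen, 14.2% risen and 50.4% below 0, so that the share of falling genes was near it. The 32 other ER folding, glycan and translocation genes had 6 that fell and 0 that rose. They were the isomerases *Pdia5* (66 and 7 reads) and *Txndc5* (338 and 106), the prolyl isomerases *Fkbp2* (248 and 71) and *Fkbp11* (44 and 8), the oxidase *Ero1lb* (25 and 7) and the signal peptidase subunit *Spcs3* (1064 and 425). At a mean log2 value of at least 8, 1 of the 26 genes of this list fell, beside 7.6% of all genes at that level. The median of the 32 genes was -0.26. *Ppib*, the ER cyclophilin, was at -0.39, the translocon subunit *Sec61b* at -0.62 and the BiP exchange factor *Sil1* highest at 0.62. In the 15 other ERAD genes the median was 0.13, with the lectin *Erlec1* up from 259 to 549 reads and the conjugating enzyme *Ube2g2* down from 703 to 241.

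Of the 14 other UPR regulators, 2 fell, *Eif2s1*, the translation factor eIF2α that PERK phosphorylates, from 2792 to 1144 reads, and *Creb3l2*, an ER-bound factor, from 54 to 21. *Atf4* and *Ddit3*, which encode transcription factors downstream of PERK, were higher without passing 2-fold. *Atf4* had 6203 and 6597 reads (1.20, 1.16 to 1.24), and *Ddit3*, the gene of CHOP, had 1085 and 1656 (1.72, 1.59 to 1.86). *Ddit3* and *Atf4* had ratios above 1 while most chaperones had ratios below 1 in the same libraries. They do not stand for their list, in which 8 of the 14 log2 ratios lay below 0 and 6 above, around a median of -0.18. Among 28 other cytosolic chaperones, *Bag2* (243 and 34), *Fkbp5* (826 and 274) and *Hspa14* (2201 and 932) fell and *Hspb1* (6 and 28) rose, with a median of -0.10. Of 12 other mitochondrial genes the protease subunit *Clpx* fell (211 and 91), and *Dnajc15* was highest at 0.74. Their median was -0.39, with 10 of the 12 below 0. Of 9 prefoldin and CCT cofactor genes *Pdcl3* fell (431 and 128), and *Pfdn5* was highest at 0.45. The median of these cofactors was -0.42, with 7 of the 9 below 0, so these 2 lists lay near the member median of -0.40.

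**Figure D4:**
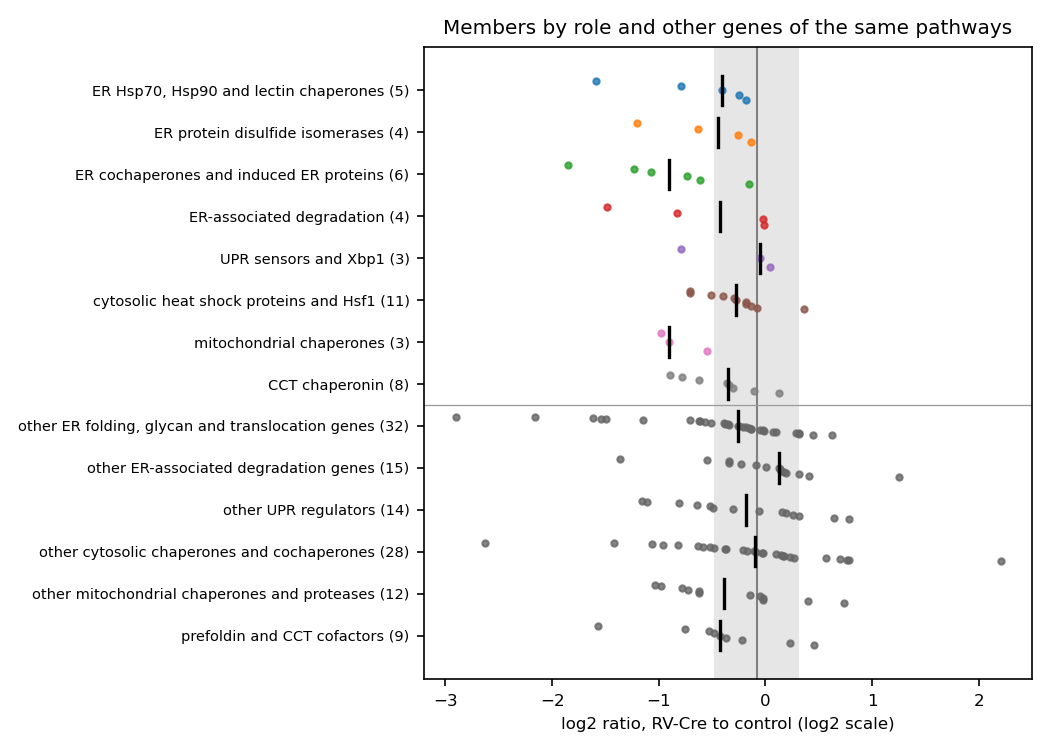
Log2 ratio (RV-Cre to control) of each gene past the minimum in the 8 member groups (coloured) and the 6 lists of other pathway genes (grey), with black bars for medians and, in brackets, the number of genes. The grey band spans the lower to the upper quartile of genes averaging a log2 value of 8 or more, from -0.48 to 0.31, and the medians of the ER cochaperones and mitochondrial chaperones lie left of it.

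Among markers of other cells, those of B cells and plasma cells and the haemoglobin genes were few in reads. The myeloid markers and the CD8 T and NK cell markers had more, and markers moved in places with the libraries. The B cell markers summed to 42 reads in control and 108 in RV-Cre cells with *Pax5* at 0 in both, and the plasma cell markers, of cells rich in ER chaperones, to 42 and 57 with *Tnfrsf17* at 0 in both. The myeloid markers summed to 269 and 416 reads, the haemoglobin genes to 37 and 185, and the CD8 T and NK cell markers to 696 and 919. The myeloid markers moved both ways. *Csf1r* (16 and 110 reads), *Fcer1g* (177 and 242), *Cd14* (14 and 21) and *Adgre1* (0 and 8) were higher in RV-Cre cells. *Lyz2* (22 and 7), *Tyrobp* (33 and 25) and *Itgam* (7 and 3) were lower. Within the CD8 T and NK cell list the CD8 genes *Cd8a* (322 and 580 reads) and *Cd8b1* (122 and 274) rose. The NK cell genes were mixed, as *Klrd1* (240 and 57) fell and *Klrb1c* went from 12 reads to a listed 0. *Ncr1* went the other way, from a listed 0 to 8 reads. These sums were higher in RV-Cre cells, the library in which most members were lower, and their part in the member ratios was not tested.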

How the data were processed

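RNA-seq libraries were prepared by the authors with a Lexogen kit from 500 ng of total RNA, 1 per condition. The authors deposited counts per gene symbol, whole numbers of reads with no scaling applied. The submitters' processing notes name bcl2fastq 2.20.0.422, Bowtie2, bedtools and the build mm10, and settings, filters and use of strand are not given in the sources used here. The libraries held 13799264 and 12305010 reads, and amplified copies are not independent, so intervals cover counting error only. Rows were grouped by the sample titles. Counts were scaled with TMM (edgeR 4.0.16, R 4.3.3), and 1 was added before taking log2. Genes were called at a fold of 2 with a log2 value of at least 4 (15 normalized reads) in at least 1 library. Intervals used scipy 1.17.1. Calls and intervals were tried on simulated counts that held counting error only, with the scaling known. That trial says nothing of differences between cultures, amplified copies or the choice of scaling. With 1 library per condition no test was run. The members and lists were chosen with earlier results of these data known. All members are named. Of the other pathway lists, genes past 2-fold, the extreme gene in each direction, *Atf4*, *Ddit3*, *Ppib* and *Sec61b* are named, with check and marker genes, of which some are not reported here. Positions and shared sequence came from GENCODE M21 (GRCm38), and upstream windows from RefSeq. Shared sequence was counted as 50-base stretches of 1 transcript per gene found in transcripts of other genes. Alternatives were other scalings, DESeq2 1.42.0 size factors among them, expression minimums, fold thresholds, pseudocounts and the summed *Hspa1a* and *Hspa1b* rows.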

Additional observations from a re-analysis of the deposited data

How the results depend on the processing

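No paired analysis was possible because the series holds a single control and a single RV-Cre library. The 6 members that fell were the same under library totals, DESeq2 size factors, median centring, the other expression minimums and both other pseudocounts, and 0 members rose under any setting with a fold of 2. With library totals that left out *Rn45s*, 5 fell, without *Sdf2l1*, and with counts scaled to *Gapdh* 3 fell, *Hsp90b1*, *Manf* and *Syvn1*. A fold threshold of 1.5 gave 19 falling members and one of 3 gave 2, *Hsp90b1* and *Manf*, by construction. Without *Rn45s* the median of all genes moved to 0.09 and that of the members to -0.31, with the groups at -0.31 (ER Hsp70, Hsp90 and lectins), -0.35 (disulfide isomerases), -0.81 (ER cochaperones), -0.33 (ERAD), 0.038 (sensors and *Xbp1*), -0.19 (cytosolic), -0.81 (mitochondrial) and -0.26 (CCT). With *Gapdh*, itself at -0.42 and with 90.4% of its sequence shared with other transcripts, the median of all genes moved to 0.43 and that of the members to 0.019, with the groups in the same order at 0.014, -0.027, -0.48, -0.007, 0.36, 0.14, -0.48 and 0.067, and 780 genes in all fell while 2960 rose. Shares and ratios within a library do not depend on the scaling. For single members, 27 values moved beyond their counting interval without *Rn45s*, 42 with *Gapdh* and 1 with DESeq2 size factors, and the cause was not tested. With 1 library per condition, differences between cultures cannot be measured, and *Hspa1a*, *Hspa1b*, *Dnajb9* and *Eif2ak3* are limited by few reads.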

Other observations

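Families of chaperones outside the lists were looked at after the values of the members had been seen. Of 25 further Dnaj genes past the expression minimum, 3 fell and 2 rose past 2-fold in RV-Cre cells, around a median of -0.17 on the log2 scale. Over all genes past the minimum 12.3% fell and 14.2% rose. *Dnajb5* went from 380 to 89 reads, a ratio of 0.264 (95% interval 0.207 to 0.334), and *Dnajb14*, an ER membrane DnaJ protein, from 116 to 304, a ratio of 2.96 (2.38 to 3.69). *Dnajc6* (54 and 15 reads), *Dnajb3* (18 and 4) and *Dnajb13* (5 and 29) had few reads. Of 15 further Fkbp and cyclophilin genes, *Ppif*, the mitochondrial cyclophilin, went from 1426 to 442 reads, a ratio of 0.350 (0.314 to 0.389), and *Ppie*, a nuclear cyclophilin, from 351 to 140, a ratio of 0.450 (0.367 to 0.549), while *Fkbp7*, an ER isomerase, had 7 and 27 reads. *Ppia*, the abundant cyclophilin of the cytosol, had 8358 and 4903 reads and a log2 ratio of -0.60, short of 2-fold.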
